A study of Mus musculus with 10 samples.

Results

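The protein shell of the cytosolic ribosome was followed through its genes in primary murine keratinocytes and CD8+ T cells. The 83 genes were taken by name from the 25814 genes of each deposited table: protein-coding genes called Rps (small subunit, 32 genes) or Rpl (large subunit, 51 genes) with a number, plus Rplp0, Rplp1, Rplp2 and Rpsa, and without the Rps6k kinases. The rule itself holds no expression value, though earlier results of these data were known when it was chosen. Ribosomal proteins whose genes have other names, such as Rack1 and Fau, were looked at in a list of other translation genes.

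RNA had been sequenced from 5 groups with 2 libraries each. The labels name no genotype or deletion, and the paper's methods give C57/B6 mice. Keratinocytes had been prepared from tail skin of adult mice and cultured alone in low-calcium keratinocyte medium, or together with CD8+ T cells that were washed off before lysis. Splenic CD8+ T cells, enriched with CD8 microbeads, had all been activated for 1 d with antibodies against CD3 and CD28. They were collected then (activated T cells), after 1 further day in keratinocyte medium (T cells in medium; a 4:1 mix with X-vivo medium by the paper), or after co-culture with keratinocytes (co-cultured T cells). By the labels this co-culture lasted 1 d, whereas the series' design text has 1 h. In comparisons with activated T cells, the time since activation and the change of medium cannot be told apart. Libraries of keratinocytes and of activated T cells carry the replicate numbers 1 and 2, those of the other T-cell groups are called a and b here. The design text speaks of parallel experiments but does not say whether the libraries of a group came from separate mice, so that p-values measure the spread between these libraries, which may be technical. The depth was 12864931 to 18019609 exon reads.

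Ribosomal proteins surround the ribosomal RNA of both subunits, and most of them are needed in equal numbers in each ribosome. Their mRNAs start with a run of pyrimidines, the 5′ terminal oligopyrimidine tract (TOP), through which the TOR kinase pathway controls their translation. The genes have left many processed copies in mammalian genomes, and a few functional paralogues, among them Rpl7l1, Rpl22l1, Rpl39l and Rps27l.

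Starts of these genes were read from a table of RefSeq promoters (GRCm38.p6), which held 63 of the 83 genes. A C followed by 6 or more pyrimidines lay between 10 bases before and 20 bases from the annotated start in 30 of them (47.6%), against 15.6% of 27025 genes in that table. Directly at the annotated start, a C with 4 or more pyrimidines after it was found for 13 of 63 (20.6%) and for 3.01% of all. The motif CCGGAAG, the core bound by ETS factors, occurred on either strand within 250 bases before to 50 after the start in 26 of 63 genes (41.3%) and in 9.93% of all, and its reverse strand, CTTCCGG, holds a short pyrimidine run that can overlap the tract. These matches describe the letters only. The 8 windows below show 4 genes with the tract at the start, 3 paralogues, and Rps2, the gene with the highest log2 fold change in T cells. Capitals mark the pyrimidine run, the annotated start is the 11th base, and all letters are written 5′ to 3′ on the strand of the gene.
Rps6 (chr4:86857348-86857377, minus strand): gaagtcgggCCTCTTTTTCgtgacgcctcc
Rps18 (chr17:33955646-33955675, minus strand): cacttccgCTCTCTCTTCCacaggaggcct
Rps27 (chr3:90213629-90213658, minus strand): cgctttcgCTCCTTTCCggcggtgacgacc
Rplp2 (chr7:141447641-141447670, plus strand): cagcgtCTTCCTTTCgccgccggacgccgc
Rpl22l1 (chr3:28805498-28805527, plus strand): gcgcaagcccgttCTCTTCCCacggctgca
Rps27l (chr9:66946076-66946105, plus strand): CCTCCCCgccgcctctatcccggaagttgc
Rpl7l1 (chr17:46782637-46782666, minus strand): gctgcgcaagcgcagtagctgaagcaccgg
Rps2 (chr17:24720053-24720082, plus strand): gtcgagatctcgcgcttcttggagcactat
No such run was found in the windows of Rpl7l1 and Rps2, which says only that these letters are not in this stretch of the annotated start.

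Ribosomal protein genes took up a large part of the mRNA in all groups, and a larger part in T cells than in keratinocytes. The share of exon reads on the 83 genes was 5.99% and 10.3% in keratinocytes alone, 8.03% and 15.3% in co-cultured keratinocytes, and 12.7% and 17.8% in activated T cells. It was 19.03% and 22.2% in T cells in medium and 19.5% and 21.9% in co-cultured T cells. Means were 8.14% ± 3.04, 11.7% ± 5.15, 15.2% ± 3.60, 20.6% ± 2.24 and 20.7% ± 1.71 in this order (SD, n = 2 each). The ranges of both keratinocyte groups overlapped, as did those of co-cultured keratinocytes and activated T cells, while all libraries of T cells in medium and of co-cultured T cells lay above those of the 3 other groups. As this is a share of bulk RNA, a change of these mRNAs per cell and a change of the other RNA or of the mix of cells cannot be told apart.

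**Figure D1:**
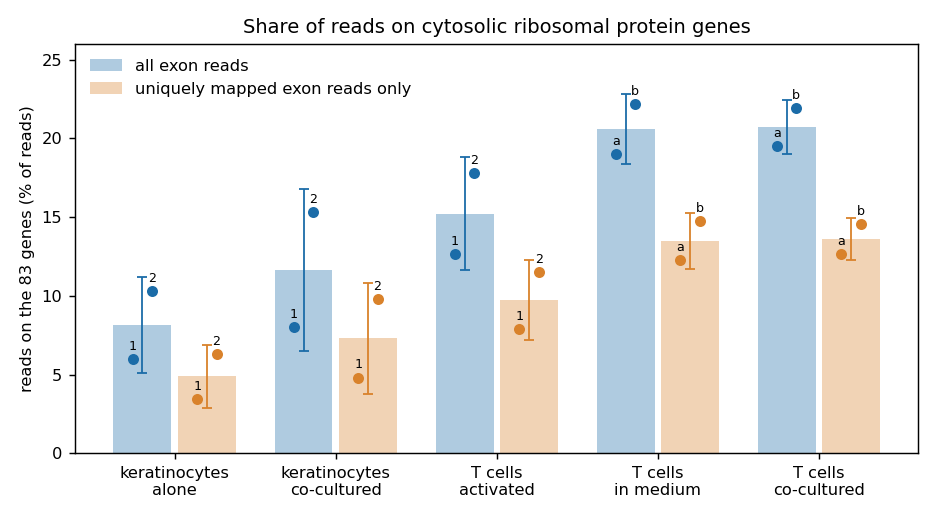
Percentage of exon reads on the 83 ribosomal protein genes for each library (points, with replicate number or letter) in 5 groups, for all exon reads (blue) and uniquely mapped reads only (orange). Bars are means and whiskers SD of 2 libraries; the share ran from 5.99% in a library of keratinocytes alone to 22.2% in a library of T cells in medium, and unique reads kept the order of the group means at lower values.

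Libraries of the same group differed widely in these genes. In keratinocytes alone, 80 of 81 genes with enough reads were higher in replicate 2 than in replicate 1, with a median difference of 0.84 on the log2 scale of TMM-normalised CPM, while the median of all 12515 genes was 0.00. In co-cultured keratinocytes 79 of 81 were higher in replicate 2 by a median of 1.02. For activated T cells the median was 0.58 with 74 of 81 genes in this direction. The libraries of T cells in medium and of co-cultured T cells differed by medians of 0.37 and 0.38, with 66 and 64 of 81 genes higher in library b.

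Markers of other cells moved with some of these differences. The summed level of 9 T-cell markers (Cd3d, Cd3e, Cd3g, Cd2, Cd5, Lck, Cd28, Cd8a and Cd8b1), all detected in every library, was 111 and 435 RPKM in keratinocytes alone and 142 and 776 RPKM in co-cultured keratinocytes, where the higher value was replicate 2 in both. The markers that define CD8+ cells were near 0 there, with 0.118 to 1.16 RPKM for Cd8a. Cd4, the marker of the other large T-cell class, had 11.4 and 43.5 RPKM in keratinocytes alone, 15.0 and 84.5 in co-cultured keratinocytes, and 16.8 and 102 RPKM in activated T cells, with the higher value in replicate 2 each time. Cd8a had 176 and 110 RPKM in activated T cells. In the other T-cell groups Cd4 was at 61.96 to 75.9 RPKM and Cd8a at 209 to 334 RPKM. In the T-cell groups the sum was 1349 and 1658, 2866 and 2417, and 2733 and 2020 RPKM. For 11 keratinocyte markers the sum was 24197 to 28412 RPKM in keratinocytes and 10.2 to 26.3 RPKM in activated T cells and T cells in medium. In co-cultured T cells it was 247 and 138 RPKM. Krt15 was at 0 in all T-cell libraries, but at only 0.116 to 1.085 RPKM in the keratinocytes themselves. Of 4 B-cell markers the sum was 92.3 RPKM in library b of T cells in medium and 16.6 to 44.2 RPKM in the other T-cell libraries, and 4 of 5 listed myeloid markers were in the tables, with sums of 15.0 to 68.6 RPKM in all libraries. Reads from mitochondrially encoded genes were 2.28% to 3.71% in keratinocytes, 2.71% and 5.01% in activated T cells, and 6.08% to 13.1% in the other T-cell groups. What these RNAs contributed to the differences of the ribosomal protein genes was not tested.

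Levels of the members differed widely among themselves. The median member had 1621 RPKM as a mean of the 5 groups (reads scaled by the authors to the length of all annotated exons and to mapped reads), 60 of 83 reached 1000 RPKM, and the 90th percentile was 7.94 times the 10th. The highest were Rplp1 (7942 RPKM), Rps2 (4340), Rps18 (3945), Rplp0 (3460) and Rpl41 (3031). The lowest were Rpl3l (0), Rpl10l (0.0068), Rpl39l (1.24), Rpl7l1 (34.7) and Rps12 (65.0). Rpl3l, the muscle paralogue of Rpl3, had no read in any library, which allows up to 0.096 to 0.129 RPKM per library when 3 reads are taken as the limit for counting error. Rpl10l, the paralogue of Rpl10 known from testis, had 1 read in 1 of 10 libraries. Rpl39l, also known from testis, had 0 to 61 reads per library and was at 0 in 3. Rpl3l and Rpl10l did not pass the filter on low counts, which left 81 members for the tests.

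**Figure D2:**
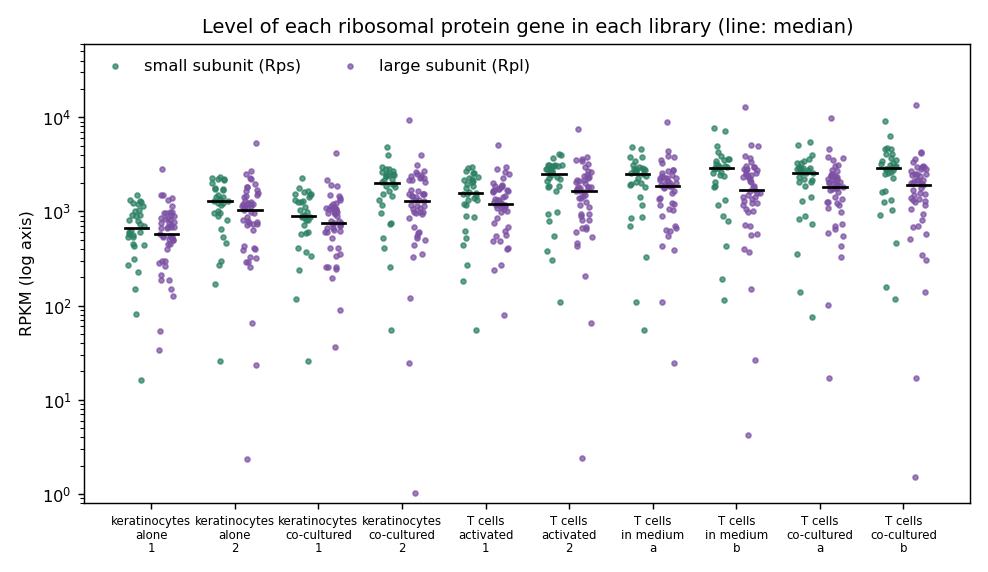
RPKM (log axis) of the ribosomal protein genes in each of the 10 libraries, small subunit in green and large subunit in violet, with a black line at the median of each subunit; values under 1 RPKM (Rpl3l, Rpl10l, and Rpl39l in some libraries) are not drawn. Over both subunits together the median ran from 641 RPKM in keratinocytes alone, replicate 1, to 2294 RPKM in T cells in medium, library b.

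Many reads on these genes had more than 1 place in the genome. Uniquely mapped reads made up 50.6% to 52.1% of the reads on these genes in every library, against 78.2% to 87.2% for all genes. In single genes the unique share ran from 0.12% for Rps27, 0.35% for Rpl13, 0.48% for Rps23, 0.50% for Rpl21 and 0.66% for Rpl23a to 100% for Rps9, Rpl4 and Rpl8. It was at least 90% for 19 of the 81 genes with 100 or more reads and under 10% for 15. Among mRNAs of GENCODE vM21, 49.9% of all words of 59 bases (the read length) in the median member were also found in transcripts of other genes, pseudogenes included. Across these 81 genes the unique share was lower where more words were shared (Pearson's r = -0.64, Spearman's rho = -0.64), a description across genes that share libraries and copies.

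**Figure D3:**
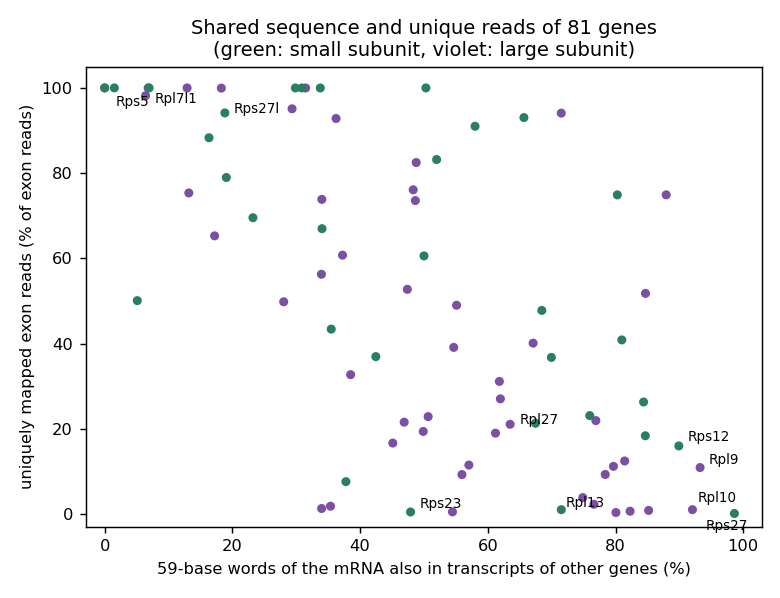
Uniquely mapped reads (% of exon reads, all libraries summed) against the share of 59-base words of the mRNA that also occur in transcripts of other genes (%), for 81 genes; each point is a gene, small subunit in green and large subunit in violet. Rps27 (98.6% of its words shared) had 0.12% unique reads, and its paralogue Rps27l (18.8% shared) had 94.1%.

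For 9 members, another gene of the tables held at least 50% of the words, and for 3 of these it also held a large part of the reads. Rps12, a small-subunit protein, had 16.3 to 116 RPKM and ranked 79th, whereas its copy Rps12-ps3, annotated as protein-coding, had 1837 to 11895 RPKM with 0 unique reads. Only 1.56% of the reads of both lay on Rps12. With these reads summed and divided by the length of one mRNA, Rps12 ranked 2nd. Rpl27 had 8.40% of the reads shared out between itself and Rpl27-ps3 (837 to 4696 RPKM, 0 unique reads) and moved from rank 78 to 33. Rpl10, which helps to form the catalytic centre of the large subunit, had 55.1%, with 459 to 2315 RPKM on Rpl10-ps3. On this scale the 90th percentile of the members was 5.15 times the 10th and 74 of 83 genes reached 1000. Levels of Rps12, Rpl27 and Rpl10 in the tables are therefore uncertain.

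To see how keratinocytes responded to CD8+ T cells, co-cultured keratinocytes were compared with keratinocytes alone. By the paper's methods, co-cultures held the 4:1 mix with X-vivo medium, so that T cells and medium cannot be told apart here. By edgeR's quasi-likelihood test with Benjamini-Hochberg adjustment, none of 81 members was higher and none lower at an adjusted p under 0.05, as for all 12515 genes tested (0% in each direction). At an unadjusted p under 0.05, 2 members were higher (Rpl27 and Rps27l) and 0 lower, against 3.08% and 4.12% of all genes. DESeq2 also called 0 members (0.703% of all genes higher and 0.783% lower), as did limma with either pseudocount (0% in each direction). The median log2 fold change of the members was 0.56 against 0.02 for all genes, and 78 of 81 were above 0. This median was -0.02 without replicate 2 of the co-cultured keratinocytes, the library with 776 RPKM of T-cell markers, 0.22 without replicate 1 of keratinocytes alone, 0.95 without replicate 1 of the co-cultured and 1.00 without replicate 2 of keratinocytes alone. With a trend in gene length removed it was 0.25. Both co-cultured libraries lay above both others for 5 of 81 members (22.2% of all genes) and below for 0 (23.5%).

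Rps2, which lines the entry of the mRNA channel, had 1481 and 2232 RPKM in keratinocytes alone and 2276 and 4891 RPKM after co-culture. The groups did not overlap in RPKM by a narrow margin, but did after TMM normalisation (log2 fold change 1.04, SE 0.59, adjusted p = 0.658). This value was 0.28 without replicate 2 of co-cultured keratinocytes and 1.52 without their replicate 1. Rps14, a platform protein at the mRNA exit, had 603 and 1303 against 919 and 2795 RPKM, and the groups overlapped. Its log2 fold change of 1.06 (SE 0.75, adjusted p = 0.681) was the highest of all members. Rpl22l1, the paralogue of Rpl22, had 128 and 258 against 195 and 525 RPKM (log2 fold change 0.99, SE 0.66, adjusted p = 0.672). Rps27l, a paralogue of Rps27 known as a target of p53, had 272 and 273 RPKM alone and 407 and 523 RPKM after co-culture. Both values after co-culture were above both others, at a log2 fold change of 0.85 (SE 0.33, adjusted p = 0.658). Small-subunit genes had a median log2 fold change of 0.73 and large-subunit genes of 0.49, a difference that was not tested.

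In T cells, most members were higher after further culture by their medians, but few passed the test, and Rpl7l1 went the other way. Between T cells in medium and activated T cells, the median log2 fold change was 0.50 (all genes -0.01), with 73 of 81 members above 0. None was called higher (2.32% of 11863 genes) and 1 was called lower (4.22% of all genes) by edgeR. At an unadjusted p under 0.05, 6 members were higher and 2 lower, against 11% and 14% of all genes. DESeq2 called 1 member higher (7.4% of all genes), and limma 0 with a pseudocount of 1 (2.61%) or 0.1 (2.62%). Between co-cultured and activated T cells the median was 0.55 (all genes -0.01), with 71 of 81 above 0, 1 member called higher (4.59% of all genes) and 1 called lower (5.72%). Here 19 members were higher and 2 lower at an unadjusted p under 0.05, against 13.9% and 14.9% of all genes. Both comparisons share the activated T cells as controls. Both libraries in medium lay above both activated libraries for 43 of 81 members, or 53.1% (26.2% of all genes), and below for 3 (28.5%). For co-cultured T cells these counts were 45 (28.6%) and 4 (28.9%). The medians stayed above 0 under all 17 alternatives of each comparison, between 0.26 and 0.81 in the first and between 0.28 and 0.90 in the second. The lowest came without replicate 1 of activated T cells (0.26) and with a trend in gene length removed (0.28; 0.33 in medium), the highest without replicate 2 of activated T cells, and in medium leaving out library b gave 0.32.

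**Figure D4:**
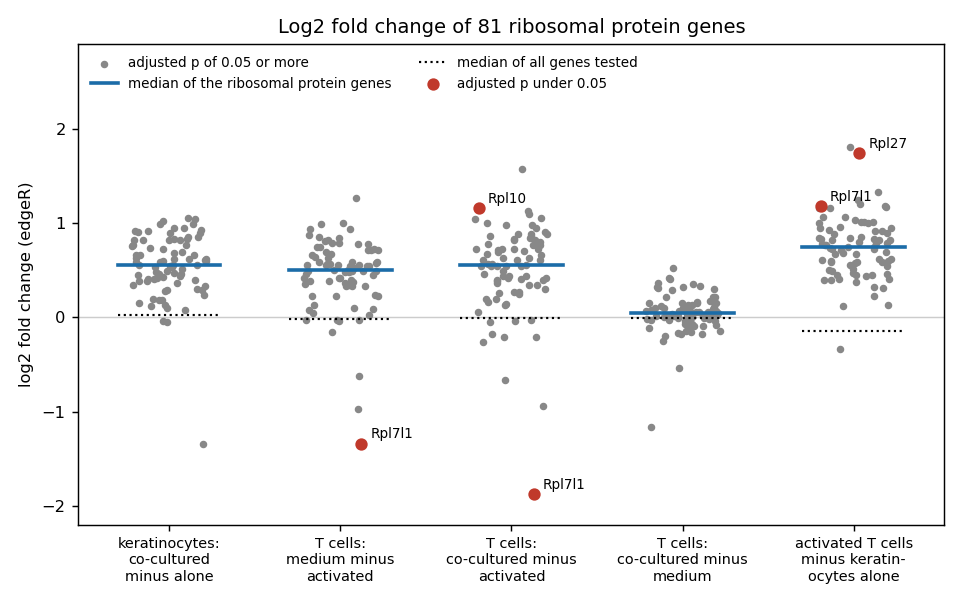
Log2 fold change (edgeR) of 81 ribosomal protein genes in 5 comparisons; grey points had an adjusted p of 0.05 or more, red points with names an adjusted p under 0.05. Blue lines are medians of the members (0.56, 0.50, 0.55, 0.04 and 0.75 from left to right) and dotted lines medians of all genes tested.

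Rpl7l1 was the member called lower in both. This paralogue of Rpl7 acts in the assembly of the large subunit in the nucleolus rather than in the finished ribosome. It had 79.0 and 65.0 RPKM in activated T cells, 24.3 and 26.8 RPKM in T cells in medium, and 16.9 and 17.2 RPKM in co-cultured T cells. Both activated libraries stood above all other T-cell libraries, without overlap, and 98.2% of the reads over all libraries were unique. The log2 fold change was -1.34 (SE 0.30, adjusted p = 0.0392) in medium and -1.88 (SE 0.30, adjusted p = 0.0115) after co-culture, by edgeR. Leaving out any library of either group ended the call in medium (adjusted p 0.075 to 0.218, log2 fold change -1.49 to -1.18), as did leaving out library b of co-cultured T cells (adjusted p = 0.051). The call after co-culture was lost without replicate 1 of the activated T cells (adjusted p = 0.0621). Its parent Rpl7 had 1662 and 2170 RPKM in activated T cells, 2254 and 2294 in medium, and 2363 and 2002 RPKM after co-culture, so that RPKM overlapped between co-cultured and activated cells.

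Rps27l also lay lower after further culture, with 270 and 384 RPKM in activated T cells, 109 and 190 RPKM in medium, and 141 and 158 RPKM after co-culture. The groups did not overlap, but the log2 fold changes of -0.97 (SE 0.41, adjusted p = 0.184) and -0.94 (SE 0.41, adjusted p = 0.173) did not pass. With the length trend removed, edgeR called Rps27l lower in both, at -1.37 (adjusted p = 0.0234) and -1.35 (adjusted p = 0.0184). DESeq2 and limma did not call Rps27l in either. Its parent Rps27 had 1325 and 2654 RPKM in activated T cells against 2806 and 3592 in medium and 2907 and 3519 after co-culture, though nearly none of its reads were unique. Rpl22l1 lay on the side of most members, with 395 and 675 RPKM in activated T cells, 618 and 1063 RPKM in medium, and 731 and 1292 RPKM after co-culture. Groups overlapped in medium but not after co-culture (log2 fold change 1.13, SE 0.49, adjusted p = 0.174). Its parent Rpl22 had 272 and 464 RPKM in activated T cells, 429 and 567 RPKM in medium, and 428 and 512 RPKM after co-culture, which overlapped.

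**Figure D5:**
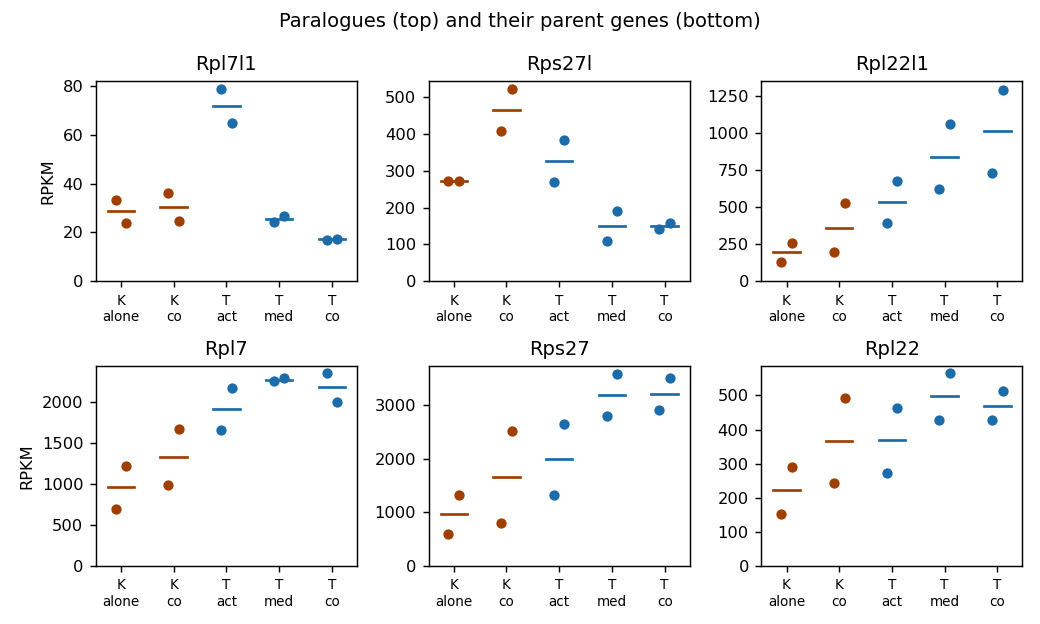
RPKM of 3 paralogues (top) and their parent genes (bottom) for each library (points) with the mean of each group (line); K alone and K co are keratinocytes without and with T cells, T act, T med and T co are activated, medium and co-cultured T cells. Rpl7l1 was highest in activated T cells (79.0 and 65.0 RPKM) and Rps27l lowest in T cells in medium and after co-culture (109 to 190 RPKM).

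Rps2 had the largest increase among the members in T cells by its fold change, which did not pass the test. Its level was 2565 and 3120 RPKM in activated T cells, 4638 and 7624 RPKM in medium, and 5431 and 9138 RPKM after co-culture, with no overlap with activated cells. The log2 fold change was 1.27 in medium (SE 0.44, adjusted p = 0.123) and 1.57 after co-culture (SE 0.44, adjusted p = 0.0603). DESeq2 gave adjusted p-values of 0.0377 and 0.00562, and limma with a pseudocount of 1 gave 0.16 and 0.0831. Leaving out each library gave log2 fold changes of 0.78 to 1.67 in medium (adjusted p 0.0637 to 0.496) and 1.02 to 1.97 after co-culture (0.0216 to 0.254), both lowest without library b of the cultured T cells.

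Rpl10 was the member called higher after co-culture. It had 1154 and 895 RPKM in activated T cells, 1641 and 1555 RPKM in medium, and 1810 and 2136 RPKM after co-culture (log2 fold change 1.16, SE 0.30, adjusted p = 0.0494). Unique reads were only 1.02% of its reads, at 204 and 162 reads in activated and 149 and 268 in co-cultured T cells, and with these the log2 fold change was 0.53 (adjusted p = 0.556). With the reads of Rpl10-ps3 added it was 1.02 (adjusted p = 0.0791). The call was lost on leaving out any one of the 6 T-cell libraries (adjusted p 0.0629 to 0.26).

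Among proteins of the stalk, which binds elongation factors, Rplp1 ranked 5th of 81 in medium and 4th after co-culture by fold change, while Rplp2 ranked 54th and 26th. For Rplp1, 5098 and 7520 RPKM in activated T cells stood against 8879 and 12918 RPKM in medium and 9939 and 13482 RPKM after co-culture, without overlap (log2 fold changes 0.94 and 1.09, SE 0.40 each, adjusted p = 0.194 and 0.122). All 4 stalk genes (Rplp0, Rplp1, Rplp2 and Rpl12) were above 0 in both comparisons, with medians of 0.67 and 0.72. For the 4 genes at the decoding site and mRNA entry (Rps2, Rps3, Rps15 and Rps23) the medians were 0.73 and 0.80. For 8 genes at the exit tunnel of the nascent chain (Rpl4, Rpl17, Rpl19, Rpl23a, Rpl26, Rpl31, Rpl35 and Rpl39) they were 0.31 and 0.23. None of these genes passed the test. Rpl5 and Rpl11, which carry the 5S RNA into the large subunit, had a median of 0.46 in medium and 0.33 after co-culture. Rps6, the subunit that S6 kinases phosphorylate, had 2865 and 3701 RPKM in activated T cells, 3810 and 3170 in medium and 3634 and 2983 after co-culture, which overlapped.

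T cells with and without keratinocytes lay close to each other in these genes. None of 81 members was called higher (0.261% of all genes) or lower (0%), with 0 at an unadjusted p under 0.05 (2.7% of all genes higher and 0.75% lower). DESeq2 called 0 members (0.666% of all genes higher and 0.0674% lower). So did limma with a pseudocount of 1 (0.826% and 0.00843%) or 0.1 (0.885% and 0.0169%). The median log2 fold change was 0.04 (all genes -0.01), 53 of 81 were above 0, and the range between quartiles was -0.03 to 0.15. Both co-cultured libraries were above both others for 5 members (14.8% of all genes) and below for 4 (12%). Rpl7l1 was 1 of these 4, at a log2 fold change of -0.54 (SE 0.30, adjusted p = 1). With 2 libraries each, the median SE of a member was 0.35, so that differences of this size could not be told from the spread between libraries. The difference between the effect of co-culture on T cells (against medium) and on keratinocytes (against alone) was tested in one fit of 8 libraries. It was called for 0 members in either direction by edgeR (0.523% of all genes higher and 0.053% lower), with 0 at an unadjusted p under 0.05 (4.59% higher and 2.47% lower). DESeq2 called 0 members as well (2.33% of all genes higher and 0.489% lower). The median of this difference on the log2 scale was -0.52 for the members and -0.02 for all genes. It was below 0 for 76 of 81 members, at a median SE of 0.69. By the paper's methods, the keratinocyte part of this difference also held the change of medium. The median of that part was -0.02 without replicate 2 of the co-cultured keratinocytes, as given above.

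Activated T cells and keratinocytes alone were 2 cell types cultured apart, in other media. The median log2 fold change of the members was 0.75 against -0.14 for all genes, 80 of 81 were above 0, and both T-cell libraries lay above both keratinocyte libraries for 47 of 81, or 58% (31.6% of all genes), and below for 0 (42%). By edgeR 2 members were called higher (13% of all genes) and 0 lower (22.5%), with 7 higher and 0 lower at an unadjusted p under 0.05 (18.2% and 28.1% of all genes). DESeq2 called 5 higher (16.8% of all genes), limma 16 with a pseudocount of 1 (18.7%) and 18 with 0.1 (18.5%). Each called 0 lower (26.3%, 24.6% and 24.2% of all genes in this order). The median was 0.48 with the length trend removed or without replicate 1 of keratinocytes alone, and 1.29 without their replicate 2. T-cell markers summed to 111 and 435 RPKM in these keratinocyte libraries, as given above.

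Rpl7l1 was higher in activated T cells, with 79.0 and 65.0 against 33.4 and 23.6 RPKM (log2 fold change 1.18, SE 0.31, adjusted p = 0.0185). The call was lost without replicate 2 of keratinocytes alone (adjusted p = 0.0852) and without replicate 1 of activated T cells (adjusted p = 0.0549). Rpl27 was the other, with 241 and 205 against 54.1 and 65.7 RPKM (log2 fold change 1.74, SE 0.39, adjusted p = 0.00964). Its unique reads, 1201 and 601 against 197 and 111, gave 2.69 (adjusted p = 0.00671), but with the reads of Rpl27-ps3 added the value was 1.24 (adjusted p = 0.111), and without replicate 1 of keratinocytes alone the adjusted p was 0.0585. In T cells Rpl27 went against most members on its own reads, with -0.63 in medium and -0.67 after co-culture (adjusted p = 0.319 and 0.257), whereas 0.40 and 0.57 were found with the copy added. Rps12 had the highest log2 fold change (1.81, SE 0.64, adjusted p = 0.0535), which was 0.77 (adjusted p = 0.332) with its copy added.

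Other parts of the translation machinery were taken from lists of genes. Of 18 other translation genes known for a TOP, 6 were called higher in activated T cells than in keratinocytes alone and 0 lower (13% and 22.5% of all genes). The median log2 fold change of the 18 was 0.71 (all genes -0.14). Of the elongation factors, Eef1g was called, while Eef1a1, Eef1b2, Eef1d and Eef2 were not. The called genes were Eef1g, Eif3e, Naca, Hnrnpa1, Npm1 and Nap1l1. Among them, Npm1, a nucleolar chaperone, had 2213 and 1760 against 261 and 436 RPKM (log2 fold change 2.35, SE 0.41, adjusted p = 0.00311), and Nap1l1, a histone chaperone, had 309 and 223 against 65.0 and 65.4 RPKM (log2 fold change 1.87, SE 0.30, adjusted p = 0.00201). In the 4 other comparisons edgeR called 0 of 18 (at most 5.72% of all genes in either direction), at medians of 0.03 to 0.55.

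Dedicated chaperones, which hold single ribosomal proteins until they are built in, were lower after further culture of T cells. Of 6 genes (Aamp, Bccip, Grwd1, Heatr3, Ltv1 and Tsr2), 0 rose and 3 fell in T cells in medium against activated T cells (2.32% and 4.22% of all genes). After co-culture 0 rose and 4 fell (4.59% and 5.72% of all genes). The median log2 fold changes were -1.83 and -2.18 (all genes -0.01 in both). Grwd1, the chaperone of Rpl3, had 68.2 and 27.6 RPKM in activated T cells, 5.98 and 4.11 RPKM in medium, and 6.13 and 5.60 RPKM after co-culture. The activated libraries did not overlap with the others (log2 fold changes -3.09, SE 0.48, adjusted p = 0.0165 and -2.82, SE 0.48, adjusted p = 0.013). Its client Rpl3 had 1267 and 1397 against 1893 and 1657 and 1987 and 1489 RPKM. Heatr3, which brings Rpl5 to the nucleus, fell by 2.92 on the log2 scale after co-culture (SE 0.47, adjusted p = 0.0112), and Ltv1, an assembly factor that holds Rps3 on the small subunit, by 3.27 (SE 0.53, adjusted p = 0.0115). Without replicate 1 of activated T cells the calls after co-culture of Grwd1 (adjusted p = 0.0643), Heatr3 (0.0578) and Ltv1 (0.0573) were lost, and so was the call of Grwd1 in medium (0.075), which was also lost without library a (0.073) or b (0.0995) of T cells in medium. The call of Bccip after co-culture (log2 fold change -1.54, adjusted p = 0.024) was lost without any library of activated or co-cultured T cells (0.074 to 0.112). In activated T cells against keratinocytes alone 4 of 6 were called higher (13% of all genes). Of the 6, 0 were called in either of the co-culture comparisons with keratinocytes alone or with T cells in medium.

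Mitochondrial ribosomal proteins translate the few proteins encoded in mitochondria. Of 78 such genes, 0 rose and 5 fell in T cells in medium (2.32% and 4.22% of all genes). After co-culture 0 rose and 9 fell (4.59% and 5.72% of all genes). The median log2 fold changes of these 78 genes were -0.63 and -0.65 (all genes -0.01 in both). Their medians thus had the opposite sign to those of the cytosolic genes in the same libraries, 0.50 and 0.55. Mrpl12 had 212 and 156 RPKM in activated T cells, 47.0 and 56.0 RPKM in medium and 44.5 and 33.2 RPKM after co-culture, without overlap (log2 fold changes -1.68, SE 0.32, adjusted p = 0.0258 and -2.06, SE 0.32, adjusted p = 0.0102). The call in medium was lost without replicate 1 of activated T cells (adjusted p = 0.129) and without library a (0.153) or b (0.114) of T cells in medium. That after co-culture was lost without replicate 1 of activated T cells (0.0568) and without library b of co-cultured T cells (0.0569). In keratinocytes after co-culture 0 of 78 were called and the median of 0.48 was close to that of the cytosolic genes, 0.56. In activated T cells against keratinocytes alone 40 of 78 were called higher and 0 lower (13% and 22.5% of all genes).

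Of 12 genes of the TOR pathway and regulators of TOP mRNAs, 3 fell and 0 rose in T cells in medium (4.22% and 2.32% of all genes). Eif4ebp1, a repressor of cap-dependent translation, had 44.2 and 45.6 RPKM in activated T cells, 8.46 and 9.81 RPKM in medium, and 8.71 and 11.96 RPKM after co-culture (log2 fold change -2.15 in medium, SE 0.38, adjusted p = 0.0213). Myc, a transcription factor that drives ribosome production, had 144.5 and 69.1, 22.8 and 11.5, and 17.9 and 7.91 RPKM in these groups (log2 fold change -2.50 in medium, SE 0.51, adjusted p = 0.0313). The other was Larp4, an RNA-binding protein. Eif4ebp1, Myc and Larp4 were also the 3 genes that fell after co-culture (5.72% of all genes). The call of Eif4ebp1 in medium was lost without any library of activated T cells or T cells in medium (adjusted p 0.0547 to 0.124). That of Myc was lost without replicate 1 of activated T cells (0.148) and without library a (0.0781) or b (0.16) of T cells in medium. In keratinocytes 0 of 12 were called after co-culture, at a median log2 fold change of -0.70. Against keratinocytes alone, activated T cells had 1 call, Rps6kb2, which was lower (22.5% of all genes).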

How the data were processed

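RNA-seq of 10 libraries (2 for each of 5 groups, taken from the labels) was used. The authors prepared poly(A) libraries from total RNA, sequenced them on a HiSeq2500 as single-end reads of 59 bases, and used the CLC Genomics Workbench to align these to GRCm38. The annotation release is not given in the sources used here. The authors deposited counts of total and uniquely mapped exon reads per gene, without normalization, in which a read with several places is also counted, and RPKM values, which they scaled to the length of all annotated exons and to mapped reads. Union exon lengths bear on levels, and reads shared with copies on both levels and fold changes.

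For log2 fold changes, total exon reads were fitted in edgeR 4.0.16 under R 4.3.3 (filterByExpr, TMM, glmQLFit, glmQLFTest; Benjamini-Hochberg over all genes tested). The standard error is the log2 fold change divided by the square root of F. Keratinocytes (4 libraries) and T cells (6) were fitted apart, the cell types in one fit of 10 libraries, and the difference of both co-culture effects in one of 8. Calls are adjusted p-values under 0.05. Libraries of a group differed far beyond sampling noise (chi-square per degree of freedom 94.2 to 209) and were kept as separate replicates. The fits were tested on simulated data, where shifts between replicates were drawn for each gene on its own and not jointly for the members. For 2 against 2 libraries, the smallest two-sided p of an exact permutation test is 0.333.

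As alternatives, counts were tested with DESeq2 1.42.0, and RPKM values with limma 3.58.1 after adding a pseudocount of 1 or 0.1 and taking log2. Further ones were scaling by library size, omission of the filter, a minimum of 10 counts in each library, unique reads, a length trend removed, other sets of libraries, the replicate number as a block, and each library left out. Chosen after seeing the data were the sum of reads with a copy that holds at least 50% of the words of 59 bases of an mRNA, and removal of trends with length and GC content. One mRNA per gene was taken from GENCODE vM21 by principal isoform, support level and then shortest length. All 83 genes were in that annotation, 77 with the same coordinates.

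Genes were named by rule: paralogues with their parents, genes of the role groups, per comparison the 5 highest and 5 lowest fold changes among members with at least 5 RPKM in either group, the 5 highest and 5 lowest levels, the 5 lowest unique shares, members called against the direction of the median, and up to 4 called genes of each other list; only those a sentence needed are printed. Members and lists were chosen with earlier results of these data known. Python 3.11.15 with pandas 2.3.3 was used for tables. Intervals and limits from 3 reads cover counting error only.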

Additional observations from a re-analysis of the deposited data

How the results depend on the processing

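With 2 libraries per group the calls rest on few degrees of freedom, and copies limit the reading of single genes. The median log2 fold change of the members kept its sign under all alternatives in T cells in medium and after co-culture against activated T cells and in activated T cells against keratinocytes alone, under 16 of 17 for keratinocytes after co-culture, and under 12 of 17 between both T-cell cultures. Members called higher and lower in T cells in medium were 1 and 1 by DESeq2 (7.4% and 9.34% of all genes). They were 1 and 1 without the filter (5.51% and 7.21%) and 1 and 2 with the length trend removed (4.37% and 6.09%). With length and GC trends removed they were 1 and 2 (4.95% and 6.95%), and 0 were lower with all 10 libraries in 1 fit (3.62%). After co-culture against activated T cells, 4 were higher by DESeq2 (9.45% of all genes), 7 without the filter (7.4%) and 2 with length and GC trends removed (7.39%). With library size (3.34%), unique reads (4.67%), copies summed (4.58%) or limma with pseudocounts of 1 (5.23%) or 0.1 (5.1%), 0 were higher. Rpl7l1 and Rps27l were the 2 lower with the length trend removed (7.82%) and with length and GC trends removed (8.71%). In activated T cells against keratinocytes alone, 5 were higher by DESeq2 (16.8% of all genes), 6 with library size (16%) and 4 with unique reads (14.8%). With length or length and GC trends removed 6 (17.2%) and 10 (17.6%) were higher, and 1 with copies summed (13%). With limma 16 were higher on log2(RPKM + 1) (18.7%) and 18 on log2(RPKM + 0.1) (18.5%). Leaving out each library gave medians of the members of 0.26 to 0.81 in medium and 0.37 to 0.90 after co-culture. In activated T cells against keratinocytes alone they were 0.48 to 1.29. Library size moved the median of all genes to -0.13 in medium and -0.17 after co-culture. The causes of these differences were not tested, apart from the construction of the sums.

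For single genes, 608 values under alternatives were computed for 34 genes and comparisons: 529 kept the side of the threshold, 46 lost a call, 29 gained one and 4 changed sign. These 4 were Rpl27 with its copy added (0.40 in medium and 0.57 after co-culture) and, without replicate 2 of co-cultured keratinocytes, Rpl22l1 and Rps14 in keratinocytes, whose log2 fold changes ran from -0.0043 to 1.64 and from -0.072 to 1.77 when each library was left out. As share of uniquely mapped reads, members made up 4.88% in keratinocytes alone, 9.74% in activated T cells, 13.5% in T cells in medium and 13.6% in co-cultured T cells. Without mitochondrially encoded genes in the total, the share in co-cultured T cells was 23.1%.

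Replicate numbers 1 and 2 are shared by both keratinocyte groups and the activated T cells, and no source says what they stand for. Deviations of libraries with the same number correlated across 12515 genes between the keratinocyte groups (Pearson's r = 0.558) and, over 12666 genes, between keratinocytes alone and activated T cells (r = 0.243), each from 2 pairs. With the number as a replicate block, 0 members were called in keratinocytes after co-culture (0.016% of all genes higher, 0% lower). In a fit of only the 4 libraries of activated T cells and keratinocytes alone, 38 were called higher with the block (18.7% of all genes) and 3 without it (15.3%).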
